A study of Mus musculus with 8 samples.

Results

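Toll-like receptors (TLRs), the membrane receptors by which cells sense microbial products and molecules released from damaged tissue, were examined together with their co-receptors and adaptors in cardiac fibroblasts. The set held 10 of the 22274 genes in the deposited table and was taken by gene symbol from a list of names drawn up when earlier results of these data were known. It comprised the receptors Tlr1, Tlr2, Tlr3, Tlr4 and Tlr6, the lipopolysaccharide co-receptors Cd14 and Ly96 (which encodes MD-2), the adaptors Myd88 and Ticam1 (which encodes TRIF), and Irak3 (which encodes IRAK-M, an inhibitory member of the IRAK kinase family). Of these genes 6 (60%) were higher and 2 (20%) were lower in the libraries labelled OEIRF7 than in those labelled GFP, against 29% and 29.9% of all genes tested, and only Cd14 differed by more than 2-fold.

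TLR4 binds lipopolysaccharide with MD-2, to which CD14 hands the ligand, while TLR2 pairs with TLR1 or TLR6 to bind bacterial lipopeptides and TLR3 binds double-stranded RNA inside endosomes. All of these receptors except TLR3 signal through MyD88 to NF-κB and the genes of inflammation. TLR3 signals through TRIF, and TLR4 uses both adaptors, with TRIF leading to IRF3 and type I interferon. Fibroblasts of the heart are known to carry TLRs, and the matrix fragments and intracellular proteins set free in injured myocardium include reported TLR ligands.

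RNA of primary murine cardiac fibroblasts was sequenced after 24 h with TGF-β at 5 ng/ml, a cytokine that turns fibroblasts into contractile myofibroblasts, in 4 libraries labelled GFP and 4 labelled OEIRF7. The GFP libraries came from cells given an empty virus and the OEIRF7 libraries from cells given a virus to overexpress the transcription factor IRF7, and both groups received TGF-β, so that no library shows the cells without it. The study's methods name an adenovirus with human IRF7 behind a viral promoter that is active in most cell types, and GEO's description names an adeno-associated virus instead. The adeno-associated virus with this gene in the study's methods carries mouse Irf7 behind the periostin promoter, and the paper describes its injection into mice. Which virus the sequenced cells received is not settled by these sources. The labels give neither the age nor the strain of the mice and do not say whether the libraries came from separate cultures, so p-values measure the spread between these libraries only.

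Mouse Irf7, the targeted gene, was at 118 ± 24 CPM (counts scaled to library size, SD, n = 4) in the libraries labelled GFP and at 15.2 ± 0.822 CPM in those labelled OEIRF7, and was thus lower under the overexpression label (log2 fold change -2.96, standard error (SE) 0.12, adjusted p = 7.7e-11, edgeR). Only mouse genes were counted, so these values check the labels only if the virus carried mouse Irf7, in which case they go against them, and every direction is given between libraries as labelled. Total counts lay between 24454801 and 28658826 per library, and any pair of libraries of a group differed beyond counting noise (chi-square of 2.69 to 8.67 for each degree of freedom). Of 12 fibroblast markers all 12 were detected, at a summed level of 28744 to 30245 CPM in the libraries labelled GFP and 25999 to 27974 CPM in those labelled OEIRF7. Of 18 macrophage markers, 16 passed the filter on low counts, at a summed level of 356 to 415 CPM against 436 to 492 CPM. The 7 neutrophil markers summed to 0.122 to 0.534 CPM in the libraries labelled GFP and 0.589 to 1.05 CPM in those labelled OEIRF7. These sums rest on few counts, with S100a9, Ly6g and Retnlg at 0, and none of the 7 passed the filter on low counts.

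Promoter windows (250 bases before to 50 after an annotated start, from RefSeq, GRCm38.p6) were found for 7 of the 10 genes, and the windows with letters of a motif are shown because the genes code for parts of the interferon and NF-κB routes. The letters searched on both strands were GAAANNGAA, the core of the interferon response element that IRF proteins bind, GGNNTTTCC for NF-κB and TGANTCA for AP-1. The interferon element was found in 3 of the 10 windows of these genes, 1 each of Myd88, Tlr6 and Irak3, against 8.56% of all 32851 windows, and the NF-κB letters in 2, of Myd88 and Tlr3, against 5.82%. None of the 10 windows held the AP-1 letters, which 7.81% of all windows held. Tlr1, Tlr6 and Irak3 had more than 1 window each, and no window was listed for Tlr4, Ly96 and Cd14. All windows lie on the minus strand and are printed from 5′ to 3′ of the gene, with the matched letters in capitals. They are Myd88 at chr9:119339969-119340268, Tlr3 at chr8:45410331-45410630, Tlr6 at chr5:64959117-64959416 and Irak3 at chr10:120202081-120202380.
Myd88: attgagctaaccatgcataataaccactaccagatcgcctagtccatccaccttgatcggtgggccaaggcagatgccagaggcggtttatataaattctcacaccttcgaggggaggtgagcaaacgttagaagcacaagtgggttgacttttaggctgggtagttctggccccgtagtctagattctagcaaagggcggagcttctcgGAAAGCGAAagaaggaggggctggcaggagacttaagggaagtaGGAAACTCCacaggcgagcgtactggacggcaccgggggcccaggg
Tlr3: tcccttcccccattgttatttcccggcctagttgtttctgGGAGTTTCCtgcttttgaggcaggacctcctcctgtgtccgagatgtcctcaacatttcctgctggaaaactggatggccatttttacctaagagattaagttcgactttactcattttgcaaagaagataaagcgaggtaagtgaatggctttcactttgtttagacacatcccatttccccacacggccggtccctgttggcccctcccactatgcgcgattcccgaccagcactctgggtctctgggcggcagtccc
Tlr6: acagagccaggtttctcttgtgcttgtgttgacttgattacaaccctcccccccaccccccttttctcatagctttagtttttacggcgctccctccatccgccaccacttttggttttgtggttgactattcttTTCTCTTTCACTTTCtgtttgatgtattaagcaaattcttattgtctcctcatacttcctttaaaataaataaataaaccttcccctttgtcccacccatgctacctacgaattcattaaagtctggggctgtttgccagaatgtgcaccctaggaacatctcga
Irak3: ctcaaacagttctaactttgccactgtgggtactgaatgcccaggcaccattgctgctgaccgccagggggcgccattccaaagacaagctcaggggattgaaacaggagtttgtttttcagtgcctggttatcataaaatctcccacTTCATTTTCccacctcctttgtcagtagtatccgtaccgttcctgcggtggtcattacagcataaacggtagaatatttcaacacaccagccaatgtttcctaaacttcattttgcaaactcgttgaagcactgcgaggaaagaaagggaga
In Myd88 the interferon element GAAAGCGAA begins 40 bases before the start and GGAAACTCC, the NF-κB letters read on the other strand, begins 4 bases after it. In the Tlr6 window TTCTCTTTC and TTCACTTTC overlap, and both are the interferon element read on the other strand. These matches are descriptions of letters, and a window without a match says only that the letters are not in it.

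Counts were compared by edgeR's quasi-likelihood test over 13533 genes, and a gene was called at an adjusted p under 0.05. All 10 genes passed the filter on low counts. With the further condition of a log2 fold change past 1, 1 of the 10 was higher, against 4.66% of tested genes, and none was lower, against 3.89%. The CPM of all 4 OEIRF7 libraries lay above all 4 GFP libraries in 6 of the 10 genes, against 26.8% of tested genes, and below them in 1, against 27%. The median log2 fold change was 0.46 over the 10 genes and 0.0 over all genes tested. The share called higher was thus above that of all genes and the share called lower below it, in a set where each gene counts for 10 percentage points.

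**Figure D1:**
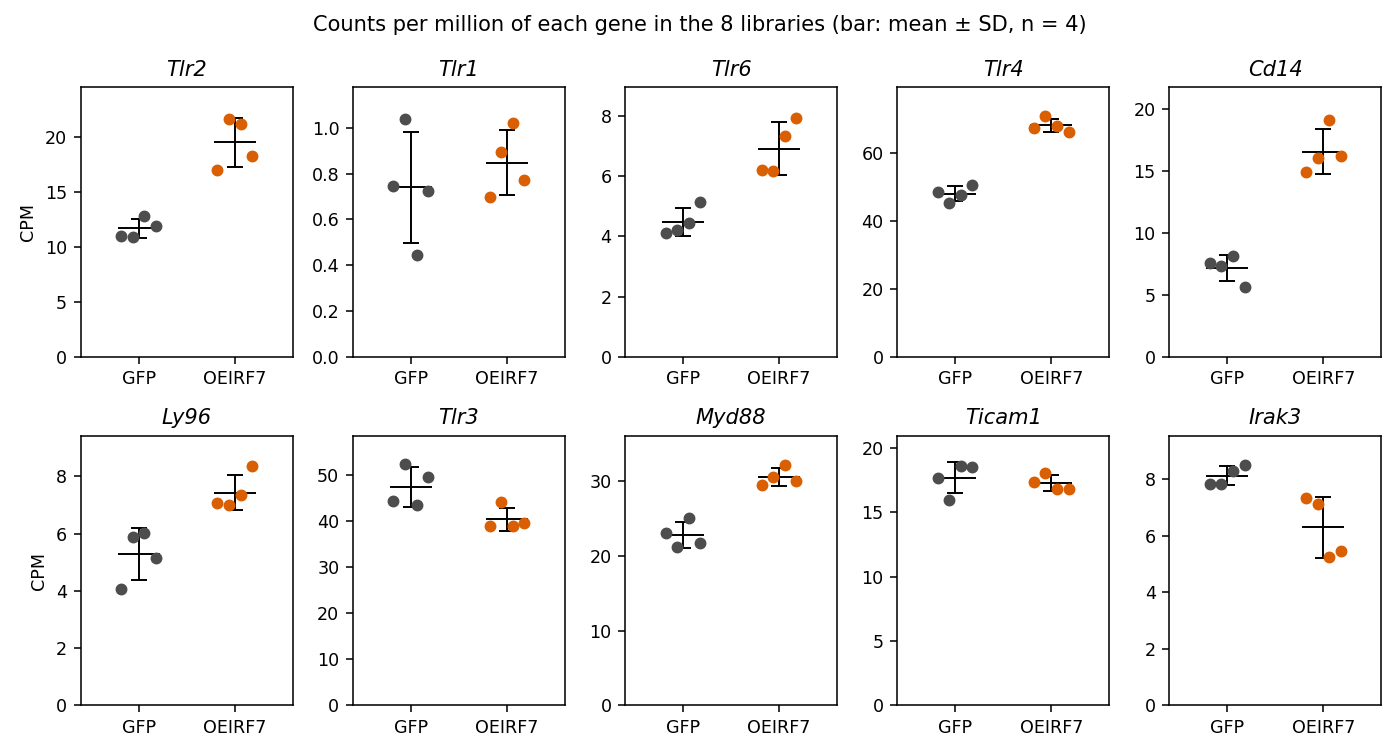
CPM of each of the 10 genes (y axis, linear from 0) in the 4 libraries labelled GFP (grey) and the 4 labelled OEIRF7 (orange), each point a library, with the mean and SD. The groups do not overlap for Tlr2, Tlr6, Tlr4, Cd14, Ly96, Myd88 and Irak3, and they overlap for Tlr1, Tlr3 and Ticam1.

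Tlr4, the lipopolysaccharide receptor, lies on the plus strand of chromosome 4 (66827584 to 66930284, GRCm38, GENCODE M21). It was counted at 1296, 1128, 1170 and 1322 in the libraries labelled GFP, replicates 1 to 4, and 1732, 2050, 1730 and 1631 in those labelled OEIRF7. Every OEIRF7 library was above every GFP library, and within each group the values were close together. In CPM this was 47.8 ± 2.17 (SD, n = 4) against 68.0 ± 1.94, a log2 fold change of 0.51 (SE 0.042, adjusted p = 1.1e-07, edgeR). Among the 10 genes it had the smallest standard error.

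Cd14, a lipopolysaccharide-binding surface protein coded on chromosome 18, had the largest log2 fold change of the 10. It was counted at 203, 183, 200 and 148 in the libraries labelled GFP and 385, 464, 487 and 400 in those labelled OEIRF7. The groups lay far apart, and replicate 4 was the lowest of the GFP libraries. The CPM was 7.16 ± 1.06 (SD, n = 4) against 16.6 ± 1.80, a log2 fold change of 1.21 (SE 0.11, adjusted p = 2.1e-07, edgeR). The 95% confidence interval of 0.98 to 1.44 reached just below the 2-fold line.

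Ly96, whose product MD-2 completes the lipopolysaccharide receptor, lies on the plus strand of chromosome 1 (16688051 to 16709611). Its counts were low, at 109, 147, 149 and 135 in the libraries labelled GFP and 182, 203, 187 and 206 in those labelled OEIRF7. The groups did not overlap, and the GFP libraries spread more widely than the OEIRF7 libraries, with replicate 1 lowest. The CPM rose from 5.29 ± 0.900 (SD, n = 4) to 7.44 ± 0.629, a log2 fold change of 0.49 (SE 0.12, adjusted p = 0.0031, edgeR). Receptor, co-receptor and MD-2 were thus all higher under the OEIRF7 label.

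Tlr2, the shared chain of the lipopeptide receptors, lies on the minus strand of chromosome 3 (83836272 to 83841767). It was counted at 296, 271, 316 and 312 in the libraries labelled GFP and 439, 627, 537 and 450 in those labelled OEIRF7. The GFP libraries were close together, while replicates 2 and 3 of OEIRF7 stood above replicates 1 and 4. The CPM was 11.7 ± 0.891 (SD, n = 4) against 19.5 ± 2.21, a log2 fold change of 0.74 (SE 0.087, adjusted p = 3.8e-06, edgeR).

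Tlr6, a partner of Tlr2 for diacylated lipopeptides, lies on the minus strand of chromosome 5 (64952031 to 64960097), close to Tlr1 (64924679 to 64933563), the partner for triacylated lipopeptides. Tlr6 was counted at 110, 105, 110 and 135 in the libraries labelled GFP and at 160, 179, 187 and 196 in those labelled OEIRF7. The groups were apart, with a log2 fold change of 0.62 (SE 0.12, adjusted p = 0.0004, edgeR). Tlr1 was the rarest of the 10, at 20, 26, 11 and 19 counts in the libraries labelled GFP and 18, 26, 26 and 19 in those labelled OEIRF7. These ranges overlapped, and the 95% confidence interval of its log2 fold change ran from -0.42 to 0.80 (estimate 0.19, adjusted p = 0.58, edgeR), an interval that holds the estimates of both Tlr2 and Tlr6. The longest annotated transcripts of Tlr1 and Tlr6 are near copies in part, with 15.3% of the windows of 50 bases in Tlr1 also in Tlr6, so reads there could be counted for neither or for the wrong gene. No window of that length in the other 8 genes was shared with another gene.

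Tlr3, the endosomal receptor for double-stranded RNA, went the other way from Tlr2 and Tlr4. It lies on the minus strand of chromosome 8 (45395665 to 45411080), with an antisense gene that shares 381 exonic bases and has no row in the table. The counts were 1188, 1307, 1072 and 1299 in the libraries labelled GFP and 1003, 1279, 987 and 977 in those labelled OEIRF7. Of the OEIRF7 libraries, replicates 1, 3 and 4 lay below all GFP libraries in CPM, and replicate 2, at 44.1 CPM, lay inside the GFP range of 43.4 to 52.4 CPM. The mean fell from 47.4 ± 4.26 CPM (SD, n = 4) to 40.3 ± 2.53 CPM, a log2 fold change of -0.23 (SE 0.063, adjusted p = 0.0057, edgeR), the smallest change among the 8 genes called. Without replicate 2 of OEIRF7 the log2 fold change was -0.28 (adjusted p = 0.0022, edgeR). An exact permutation test on log2 CPM, two-sided, gave p = 0.057 for Tlr3 and p = 0.029, the smallest that 4 against 4 libraries allow, for each of the 7 genes whose groups did not overlap.

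Myd88, the adaptor of all TLRs but TLR3 and of the interleukin-1 receptor family, lies on the minus strand of chromosome 9 (119335934 to 119341411). It was counted at 615, 528, 620 and 570 in the libraries labelled GFP and 759, 885, 819 and 741 in those labelled OEIRF7. No GFP library reached the lowest OEIRF7 library. The CPM was 22.7 ± 1.75 (SD, n = 4) against 30.5 ± 1.17, a log2 fold change of 0.43 (SE 0.061, adjusted p = 2.6e-05, edgeR). Acaa1a, a peroxisomal enzyme gene on the opposite strand, shares 290 exonic bases with Myd88 and the strand setting of the counting is not given in the sources used here. Acaa1a itself differed by -0.07 on the log2 scale (SE 0.048, adjusted p = 0.21, edgeR).

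Ticam1, the gene of TRIF, lies on the minus strand of chromosome 17 (56269319 to 56276786) and was counted at 474, 400, 459 and 484 in the libraries labelled GFP and 448, 525, 428 and 414 in those labelled OEIRF7. The 2 groups covered much the same range. The log2 fold change was -0.03 with a 95% confidence interval from -0.17 to 0.10 (adjusted p = 0.67, edgeR), an interval that does not reach the estimate for Myd88. Among the adaptors, the one shared by most receptors was therefore higher, and for the one used by Tlr3 no difference was detected.

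Irak3, whose product holds back signalling below MyD88 and is known best from macrophages, lies on the minus strand of chromosome 10 (120141648 to 120202130). It was counted at 210, 196, 205 and 223 in the libraries labelled GFP and 189, 207, 134 and 135 in those labelled OEIRF7. Replicates 3 and 4 of OEIRF7 were well below all others, while replicates 1 and 2, at 7.33 and 7.13 CPM, lay just under the lowest GFP library at 7.84 CPM. The mean fell from 8.12 ± 0.334 CPM (SD, n = 4) to 6.30 ± 1.08 CPM, a log2 fold change of -0.36 (SE 0.11, adjusted p = 0.013, edgeR). On log2(FPKM + 1) the difference was -0.21 and on log2(FPKM + 0.1) it was -0.30. The call was lost on both (adjusted p = 0.059 and 0.062, limma). Tmbim4, which shares 192 exonic bases with Irak3 on the opposite strand, was higher by 0.24 on the log2 scale (SE 0.050, adjusted p = 0.00066, edgeR). Whether reads in the shared bases affected the counts of Irak3 was not tested.

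**Figure D2:**
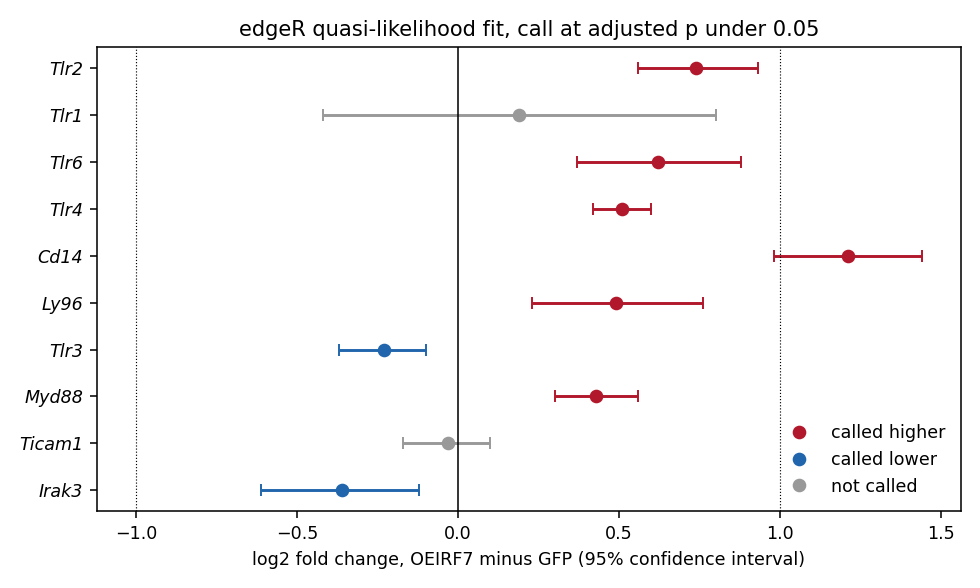
Log2 fold change of the 10 genes (x axis, OEIRF7 minus GFP, with 95% confidence intervals), from edgeR's quasi-likelihood fit, with dotted lines at 2-fold. Cd14 stands farthest right at 1.21, the intervals of Tlr1 and Ticam1 cross 0, and Tlr3 and Irak3 lie left of it.

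Whether genes of one receptor complex or one signalling branch changed to a like degree was examined by the ratio of 2 genes within each library, which does not depend on the scaling of libraries. The ratio of Cd14 to Tlr4 CPM was 0.157, 0.162, 0.171 and 0.112 in the libraries labelled GFP and 0.222, 0.226, 0.282 and 0.245 in those labelled OEIRF7. All OEIRF7 values were above all GFP values, so Cd14 stood higher beside Tlr4 under that label. The ratio of Ly96 to Tlr4 was 0.111 ± 0.0219 (SD, n = 4) against 0.110 ± 0.0117, and the ratio of Tlr2 to Tlr4 was 0.244 ± 0.0183 against 0.286 ± 0.0268, both with overlapping groups.

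On the adaptor side, the ratio of Ticam1 to Myd88 was 0.771, 0.758, 0.740 and 0.849 in the libraries labelled GFP and 0.590, 0.593, 0.523 and 0.559 in those labelled OEIRF7, again without overlap. The ratio of Irak3 to Myd88 fell from 0.359 ± 0.0277 (SD, n = 4) to 0.207 ± 0.0408 in the mean, also without overlap. The ratio of Tlr1 to Tlr6 was 0.168 ± 0.0630 against 0.123 ± 0.0227, and overlapped. In exact permutation tests, two-sided, over the 6 ratios, the ratios of Cd14 to Tlr4, Ticam1 to Myd88 and Irak3 to Myd88 each reached the smallest p of 0.029. After Benjamini-Hochberg adjustment this became 0.057, so that no ratio passed 0.05. With only these ratios at the smallest p, 0.057 is the lowest adjusted value possible, however far apart their groups lie. The other p-values were 0.057 for Tlr2 to Tlr4, 0.26 for Tlr1 to Tlr6 and 0.94 for Ly96 to Tlr4, with adjusted values of 0.086, 0.31 and 0.94 (exact permutation tests).

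**Figure D3:**
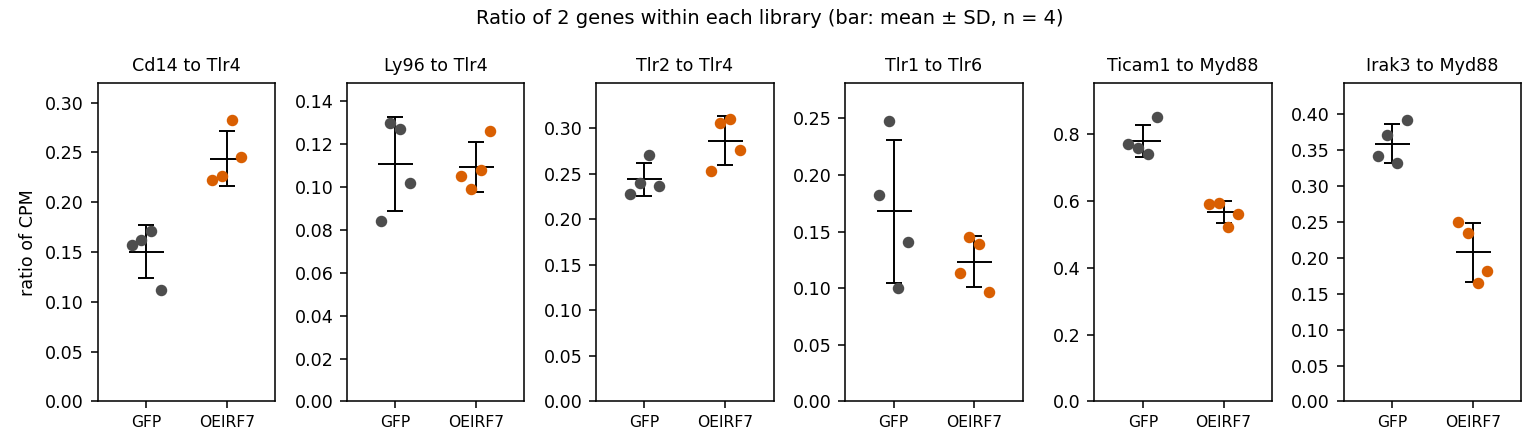
Ratio of the CPM of 2 genes within each library (y axis, linear from 0), each point a library, with the mean and SD of 4, GFP in grey and OEIRF7 in orange. The groups are apart for Cd14 to Tlr4 (0.15 against 0.244 in the mean), Ticam1 to Myd88 (0.779 against 0.566) and Irak3 to Myd88 (0.359 against 0.207).

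The order of the genes by level was read from the deposited FPKM, fragments scaled to gene length and library size, which allow comparison between genes. In the libraries labelled GFP, Tlr3 was highest at 15.3 ± 1.70 FPKM (SD, n = 4), followed by Tlr4 at 11.7 ± 0.518 and Myd88 at 11.5 ± 0.895. Tlr4 and Myd88 overlapped, and Tlr3 lay above both. In CPM Tlr3 and Tlr4 were alike under this label, at 47.4 ± 4.26 and 47.8 ± 2.17. The place of Tlr3 above Tlr4 thus rests on the length behind its FPKM, 3.01 to 3.16 kb by its counts. The longest annotated transcript of Tlr3 has 4407 bases, so this order is uncertain. Below them came Ly96 at 8.30 ± 1.44, Ticam1 at 5.86 ± 0.387, Cd14 at 4.33 ± 0.647, Tlr2 at 3.82 ± 0.295, Irak3 at 2.62 ± 0.134, Tlr6 at 2.09 ± 0.342 and Tlr1 at 0.253 ± 0.0822 FPKM. Of these neighbours, Cd14 and Tlr2 overlapped between libraries.

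In the libraries labelled OEIRF7 the order began with Tlr4 at 17.0 ± 0.580 FPKM (SD, n = 4), Myd88 at 15.7 ± 0.524 and Tlr3 at 12.7 ± 1.56. Ly96 at 11.9 ± 0.983 overlapped with both Tlr3 and Cd14, the latter at 10.2 ± 1.05 FPKM. Tlr2 at 6.53 ± 0.729 overlapped with Ticam1 at 5.82 ± 0.228, and Tlr6 at 3.64 ± 1.12, Irak3 at 2.14 ± 0.370 and Tlr1 at 0.297 ± 0.0556 FPKM were lowest. Cd14 thus stood below Ticam1 under the GFP label and above it under the OEIRF7 label. The ratio of Tlr3 to Tlr4 FPKM was 1.18 to 1.56 in the libraries labelled GFP and 0.633 to 0.860 in those labelled OEIRF7. For Tlr6 the length implied by the count and the FPKM of a library ranged from 1.52 to 2.73 kb and for Tlr3 from 2.83 to 3.65 kb, while it differed between libraries by a ratio of at most 1.11 in the other 8 genes, so the FPKM of Tlr6 and Tlr3 were less comparable between libraries than their counts.

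**Figure D4:**
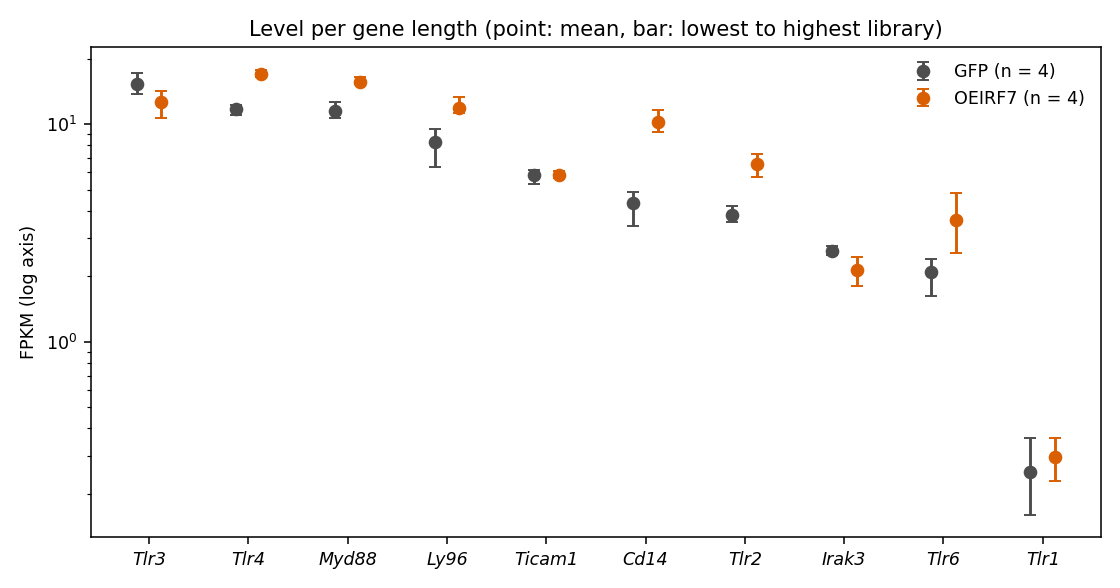
FPKM of the 10 genes (y axis, log scale) ordered by their level in the libraries labelled GFP, with points for the mean of 4 libraries and bars from the lowest to the highest. Tlr3 leads with 15.3 FPKM under the GFP label and Tlr4 with 17.0 FPKM under the OEIRF7 label, and Tlr1 is lowest in both. The place of Tlr3 above Tlr4 depends on the gene length behind the FPKM.

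The macrophage markers, genes of a cell type that carries TLRs and CD14 in abundance, moved in the same direction in part. Of 18 markers 16 were tested, 8 were higher and 1 was lower, with a median log2 fold change of 0.18. Over all genes tested 29% were called higher and 29.9% lower, shares that apply to the other marker lists as well. Itgam and Mrc1 were 2.10-fold and 2.07-fold higher, Fcer1g 1.44-fold and Adgre1 1.35-fold, and Lyz2, Laptm5, Tyrobp and Cd68 1.16-fold to 1.18-fold. The 6 TLR genes called higher differed by 1.34-fold to 2.31-fold. The summed CPM was 1.19 times that of the libraries labelled GFP in the mean, a sum of which Lyz2 is the largest part. Lyz2 went from 202 ± 15.9 CPM (SD, n = 4) to 235 ± 11.4 CPM, and Cd68 from 31.3 ± 3.07 to 36.3 ± 3.46. Aif1 and Cd163 were below 1 CPM in every library, and Ptprc, Csf1r and the C1q genes were among those not called. Cx3cr1 was the marker called lower, by more than 2-fold. More macrophages and more RNA per cell cannot be told apart in bulk samples, and the part of these cells in the values of the TLR genes was not tested.

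Among dendritic and B cell markers 2 of 7 were tested and both were higher, Itgax and Xcr1. The summed level was 5.06 to 6.20 CPM against 8.28 to 10.8 CPM, with Flt3 at 0. All of these markers but Itgax, Xcr1 included, were below 1 CPM in every library. Of 7 endothelial markers 3 were higher and 1 lower, at 213 to 224 CPM against 212 to 241 CPM in sum. Of 5 tested mural markers 2 were higher and 2 lower (68.9 to 76.0 CPM against 79.0 to 98.8 CPM), of 5 epicardial markers 2 were higher and 1 lower (72.4 to 88.6 CPM against 58.3 to 65.8 CPM), and the only tested cardiomyocyte marker, Tnnt2, was lower. Their part in the values of the TLR genes was not tested either. Of the 12 fibroblast markers, 2 were higher, Pdgfra (log2 fold change 0.25) and Vim (0.22), and 7 were lower. Among the latter were Tcf21 (-1.33) and the matrix genes Col3a1 (-0.53), Postn (-0.38) and Col1a1 (-0.16). Col1a2 (-0.05), Dcn and Thy1 were not called.

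Other genes of the TLR pathway were grouped into 7 lists by their role. Of all genes tested, 29% were called higher and 29.9% lower, and 4.66% and 3.89% past 2-fold. The counts called in each list are to be read beside these shares, and no list was tested as a set. Of the 7 other TLRs none was called, with 4 tested. Tlr7, a receptor for single-stranded RNA, was at 6.55 ± 0.940 CPM (SD, n = 4) against 7.51 ± 0.647 (adjusted p = 0.16, edgeR), and Tlr13, a receptor for bacterial ribosomal RNA, at 8.27 ± 0.664 against 6.96 ± 1.32 (adjusted p = 0.097, edgeR). At an unadjusted p under 0.05 the count was also 0, and DESeq2 called 0. Without replicate 1 of GFP, Tlr7 was called higher (adjusted p = 0.049, edgeR), and without replicate 4 of OEIRF7, Tlr13 was called lower (adjusted p = 0.026, edgeR). Tlr9, Tlr11 and Tlr12 stayed below 1 CPM in every library, and Tlr11 had no count.

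Of 8 genes for co-receptors and receptor trafficking 1 was higher and 5 were lower, with a median log2 fold change of -0.16. The gene called higher was Cd36, a scavenger receptor that serves as co-receptor of TLR2 and TLR6, at 0.79 (SE 0.066, adjusted p = 1e-07, edgeR). Cd180 (log2 fold change -0.66), Rftn1 (-0.63), Lbp (-0.38), Unc93b1 (-0.17) and Cnpy3 (-0.16) were called lower. Rftn1 codes for raftlin, a lipid-raft protein, and fell from 76.1 ± 4.46 CPM (SD, n = 4) to 49.2 ± 2.11 CPM. Unc93b1 carries the endosomal receptors, TLR3 among them, to their compartment, and Cnpy3 with Hsp90b1 folds TLRs in the endoplasmic reticulum. Hsp90b1 was at 1003 ± 36.8 CPM against 1024 ± 34.4 CPM and was not called. DESeq2 called 4 genes lower, as did the fits without replicate 2, 3 or 4 of either group. Without replicate 1 of OEIRF7 and without scaling beyond library size 3 genes were called lower (Cd180, Rftn1 and Unc93b1), and limma on FPKM called 2 (Cd180 and Rftn1).

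Of 25 further adaptors and proximal kinases and ligases 5 were higher and 8 lower, against 29% and 29.9% of all genes tested. The median log2 fold change was -0.03. Irak1, the kinase that MyD88 recruits through IRAK4, was the only one past 2-fold. Its CPM was 95.4, 103, 95 and 93.4 in the libraries labelled GFP and 39.1, 36.3, 37.0 and 37.2 in those labelled OEIRF7. The groups lay far apart and each was narrow, with a log2 fold change of -1.37 (SE 0.042, adjusted p = 6.7e-12, edgeR). The genes called higher were Tirap (0.31), the bridge from TLR2 and TLR4 to MyD88, Traf3 (0.36), Tank (0.35), Ube2v1 (0.26) and Peli1 (0.41). Called lower beside Irak1 were Sarm1 (-0.88, near or below 1 CPM), Ikbke (-0.45), Ube2n (-0.34), Ikbkg (-0.24), Traf6 (-0.23), Tab3 (-0.22) and Chuk (-0.14). Tab2, the most abundant of the list with Ube2v1, was at 182 ± 11 CPM (SD, n = 4) against 178 ± 12.3 CPM and was not called.

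Of 17 negative regulators of the pathway, Irak3 not among them, 9 were higher and 5 lower, with a median log2 fold change of 0.25. Past 2-fold were Nfkbia, Zc3h12a and Il1rl1, all higher. Nfkbia, the gene of the NF-κB inhibitor IκBα, was at 14.0, 16.3, 17.9 and 14.6 CPM in the libraries labelled GFP and 38.1, 40.9, 45.5 and 33.5 CPM in those labelled OEIRF7, without overlap (log2 fold change 1.33, SE 0.094, adjusted p = 1.8e-08, edgeR). Zc3h12a, an RNase that degrades cytokine messenger RNA, rose from 8.63 ± 0.879 CPM (SD, n = 4) to 18 ± 0.674 CPM, and Il1rl1, the receptor of interleukin-33, from 0.703 ± 0.303 CPM to 2.74 ± 0.256 CPM. Tollip, which binds IRAK1, was the most abundant of those called lower and fell from 187 ± 2.95 CPM to 102 ± 5.01 CPM (log2 fold change -0.88, SE 0.038, adjusted p = 1.3e-10, edgeR). Lgals3bp was at 747 ± 31.1 CPM against 707 ± 34.9 CPM and was not called. Nfkbia and several other genes of this list are themselves known NF-κB targets.

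Of 16 known targets of the MyD88 arm 13 were tested and 11 were higher, 9 of them past 2-fold, none was lower, and the median log2 fold change was 2.12 against 0.0 over all genes tested. Their summed level was 593 to 660 CPM in the libraries labelled GFP and 2053 to 3163 CPM in those labelled OEIRF7. These genes answer many other stimuli as well, so their level is no readout of TLR signalling alone. Ccl2, a monocyte-attracting chemokine, was at 36.5, 38.0, 41.0 and 35.7 CPM under the GFP label and 339, 356, 365 and 272 CPM under the OEIRF7 label, with a wide gap between the groups (log2 fold change 3.14, SE 0.082, adjusted p = 1.2e-12, edgeR). Its neighbour Ccl7 rose from 16.6 ± 2.13 CPM (SD, n = 4) to 252 ± 22.8 CPM.

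Ptgs2, the gene of cyclooxygenase-2, was at 147, 110, 193 and 170 CPM in the libraries labelled GFP and 815, 777, 1706 and 797 CPM in those labelled OEIRF7. Replicate 3 of OEIRF7 stood far above the other three, all of which were still above the GFP libraries. The neutrophil-attracting chemokines Cxcl1 (log2 fold change 3.21) and Cxcl5 (2.05) were highest in the same library, at 26.5 and 65.7 CPM. Vcam1, an adhesion molecule for leukocytes, went from 242 ± 16.4 CPM (SD, n = 4) to 563 ± 60.6 CPM (log2 fold change 1.22, SE 0.066, adjusted p = 1.1e-09, edgeR). Il6 was not called, at a log2 fold change of -0.05 (adjusted p = 0.73, edgeR), nor was Lcn2, and Il1b, Saa3 and Csf3 did not pass the filter on low counts.

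Of 12 targets of the TRIF arm 9 were tested, 3 were higher and 3 lower, and the median log2 fold change was 0.11. Rsad2, the gene of the antiviral protein viperin, rose from 8.94 ± 1.94 CPM (SD, n = 4) to 20.6 ± 4.03 CPM (log2 fold change 1.20, SE 0.15, adjusted p = 6.7e-06, edgeR). Cxcl10, a T-cell chemokine, was at 1.42, 1.44, 1.01 and 1.91 CPM under the GFP label and 1.82, 2.93, 5.06 and 3.33 CPM under the OEIRF7 label, and 1 OEIRF7 library lay inside the GFP range (log2 fold change 1.18, adjusted p = 0.0022, edgeR). Irf1 was the other gene called higher, at 0.54. The abundant interferon-induced genes Ifit3 (410 ± 84.1 CPM against 329 ± 35.8 CPM, log2 fold change -0.32) and Ifit1 (-0.28) were lower with overlapping groups, with counts that are uncertain for Ifit3 because of its near-identical copy Ifit3b, and Gbp2 (-0.37) was lower without overlap. Of these genes Gbp2 alone was called lower by DESeq2, by limma on FPKM and without replicate 2 of GFP or replicate 1 or 4 of OEIRF7. Ifnb1, the gene of interferon β, had no count in any library.

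Of 13 genes for endogenous ligands of TLR2 and TLR4, matrix proteins and proteins released by stressed cells, 9 were tested, 5 were higher and 3 lower, with a median log2 fold change of 0.10. Hspa1a, a heat-shock protein gene whose counts are uncertain because of its near-identical copy Hspa1b, was the only one past 2-fold and rose from 17.7 ± 2.27 CPM (SD, n = 4) to 45.2 ± 9.92 CPM (log2 fold change 1.35, SE 0.13, adjusted p = 4e-07, edgeR). The matrix genes Tnc (log2 fold change 0.96) and Vcan (0.95) were higher, and Hspd1 (0.15) and Hmgb1 (0.10) slightly so. Biglycan, coded by Bgn, fell from 5601 ± 126 CPM to 4610 ± 145 CPM, and fibronectin, coded by Fn1 and also a fibroblast marker here, from 13267 ± 411 CPM to 11908 ± 532 CPM. Lum was the other gene called lower (-0.35). S100a9, Sftpa1 and Sftpd had no count. S100a8, also a neutrophil marker here, did not pass the filter on low counts. It was at 0.0896 ± 0.129 CPM in the libraries labelled GFP and 0.54 ± 0.24 CPM in those labelled OEIRF7, without overlap.

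**Figure D5:**
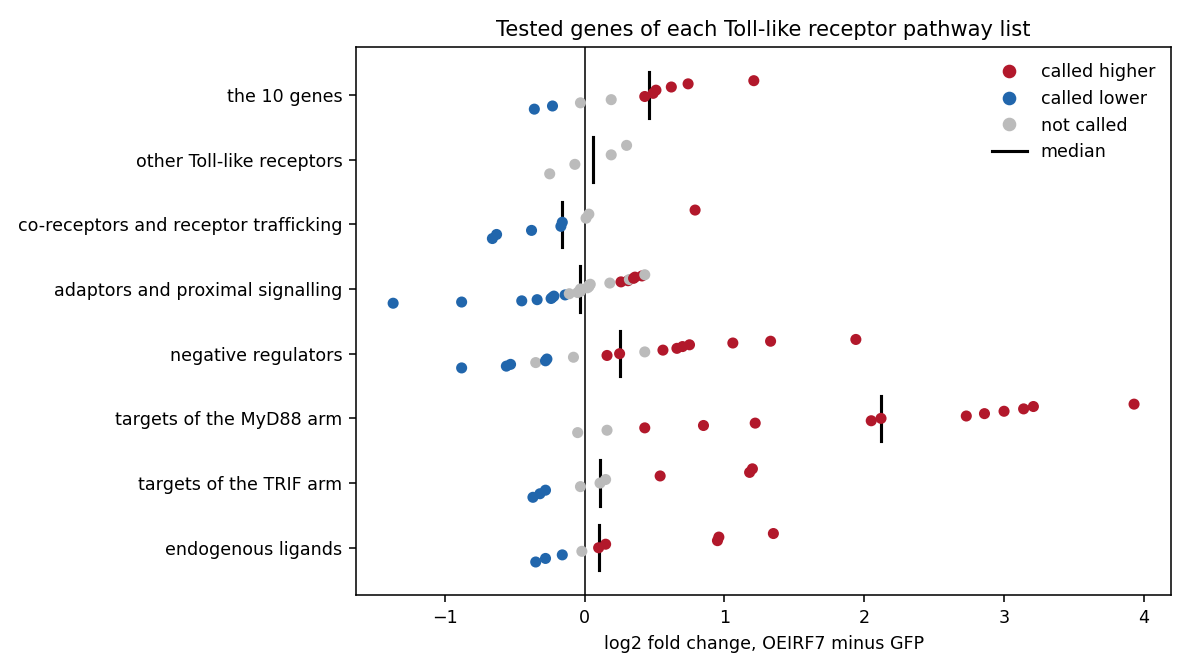
Log2 fold change (x axis, OEIRF7 minus GFP) of each tested gene in the set of 10 and in the 7 lists of other pathway genes, coloured by call, with a bar at the median. The targets of the MyD88 arm stand apart to the right with a median of 2.12, while the medians of the other lists lie between -0.16 and 0.25 and that of the 10 genes is 0.46.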

How the data were processed

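After trimming (Trimmomatic) and mapping to GRCm38 (HISAT2), the authors deposited raw read counts per gene from HTSeq-count and FPKM from Cufflinks, rounded to 2 decimals. The strand setting of the counting and the tools' versions are not given in the sources used here. The deposited table also holds the authors' group means, log2 ratios, p-values and FDR, which were not used. In 121 gene symbols the letters nc stood as GFP and were restored by Ensembl identifier, and 22219 of 22274 identifiers were found in GENCODE M21.

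The groups were compared with edgeR 4.0.16 in R 4.3.3 (filterByExpr, TMM scaling, glmQLFit and glmQLFTest, no covariate, two-sided), with Benjamini-Hochberg adjustment over the 13533 genes tested. CPM are these counts scaled by TMM, log2 CPM used a prior count of 2, and TMM factors were 0.989 to 1.01. The common biological coefficient of variation was 0.0562. Exact permutation tests were run beside the fit, and their smallest p with 4 against 4 is 0.029. The fits were tested on simulated data. Depth limits genes below 1 CPM, which rest on few counts.

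Alternatives were DESeq2 1.42.0, other scalings and filters, the replicate number as a block, each library left out in turn, and limma 3.58.1 on log2 FPKM. The members and lists were chosen with earlier results of these data known. The genes named were all 10 members, Irf7, the genes of each pathway list past 2-fold at an adjusted p under 0.05 and above 1 CPM in a group (where more than 6, the 6 most abundant), and the 2 most abundant of each list. For the marker lists only the latter applied. Other genes were named after their values were seen, where 5 or fewer were called, for the adaptors called lower, or where a marker or overlapping gene bore on a count.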

Additional observations from a re-analysis of the deposited data

Results flagged for a closer look

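Among 20 groups of 4 libraries (the 10 genes in 2 groups each), 1 held a library that stood apart from the other three by more than the 95% limit of Dixon's test. This was Tlr3 in the libraries labelled OEIRF7, where replicate 2 was at 44.1 CPM and the others between 38.8 and 39.6 CPM, a gap of 0.838 of the range. Chance flags about 1 in 20 such groups. The log2 fold change of Tlr3 without that library is given with the gene.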

How the results depend on the processing

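The 6 genes called higher (Cd14, Tlr2, Tlr6, Tlr4, Ly96 and Myd88) were called in all 17 alternatives, with log2 fold changes of 1.07 to 1.27 for Cd14, 0.64 to 0.80 for Tlr2, 0.55 to 0.73 for Tlr6, 0.48 to 0.54 for Tlr4, 0.38 to 0.56 for Ly96 and 0.39 to 0.48 for Myd88. Tlr1 and Ticam1 were called in none. The number called lower was 2 in the main test and 1 with limma on log2(FPKM + 1) and on log2(FPKM + 0.1), where Irak3 was lost (log2 difference -0.21 and -0.30, adjusted p = 0.059 and 0.062, against -0.36 in the main test), and 0 on log2(FPKM + 1) without a filter, where Irak3 (-0.21, adjusted p = 0.094) and Tlr3 (-0.25, adjusted p = 0.076, against -0.23) were lost. The cause was not tested. No alternative reversed a call. Leaving out 1 library gave 6 higher and 2 lower each time, and over all genes 3688 to 3871 higher and 3818 to 3962 lower. Another scaling moved the median of all genes by at most 0.03 on the log2 scale. The replicate numbers were shared by the groups, and the correlations of same-numbered libraries (0.0792, 0.0953, 0.138 and 0.104) were weak and not all above 0.1. Each library nevertheless correlated best with its own number, a hint from the data. Whether same-numbered libraries share more than a number is therefore open. With the replicate block 6 genes were higher and 2 lower, as without it, and over all genes 4057 were higher and 4154 lower. Adaptors called lower went from 8 to 5 with limma on FPKM, and ligands called lower from 3 to 1 without a filter there. Genes near or below 1 CPM, Tlr1 among them, are limited by depth.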
